A study of Bos taurus with 14 samples.

Results

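The genes described here are 8 genes of the bovine major histocompatibility complex (MHC, called BoLA in cattle): BOLA, BOLA-N, BOLA-DQA1, BOLA-DQA2, BOLA-DQA5, BOLA-DQB, BOLA-DQB1 and BOLA-DOA. They were chosen by the spread of their measured log2 values between arrays of the same group, which had been seen to be wide. Every probe set whose only annotated gene symbol is one of these names was taken, which gave 15 probe sets of the 24016 tested. A probe set is a group of short probes on the array that together give 1 value. The spread within groups chose the genes, so it is given as a description and was not tested.

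Mammary tissue came by biopsy from Holstein cows that had stopped milking about 60 days before the predicted calving. The cows were kept for the whole dry period either on long days (LD, lit for 16 h and dark for 8 h a day) or on short days (SD, lit for 8 h and dark for 16 h a day). The 14 arrays fall into 4 groups: 3 of LD and 3 of SD at day -24 relative to calving, and 4 of LD and 4 of SD at day -9. All groups share the breed, the tissue and the dry period, and none was left without a set photoperiod. The study asked how photoperiod in late gestation changes the mammary transcriptome. SD stands for short days throughout, and "standard deviation" is written in full.

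MHC molecules hold peptides at the cell surface, where T cells read them. Class I molecules are made by nearly all cells with a nucleus and show peptides from inside the cell, while class II molecules are pairs of an alpha and a beta chain that show peptides taken up from outside and are made mainly by dendritic cells, macrophages and B cells. The classical MHC genes are the most polymorphic genes of mammals, and in cattle the number of DQ genes also differs between haplotypes, so that some animals carry duplicated DQA and DQB genes of quite different sequence. A microarray probe is a short stretch of reference sequence, and an allele that differs under it binds less. The labels give no MHC type of the cows. At these genes, less RNA, weaker binding of another allele and a gene missing from a haplotype cannot be told apart, and in a biopsy of mixed cells neither can fewer cells of a type and less RNA per cell.

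The authors deposited 1 log2 value per probe set and array, made by robust multi-array average (RMA). These values ran from 1.49 to 13.9, with array medians between 6.43 and 6.61 and lower quartiles between 4.47 and 4.73. Over all tested probe sets, 2 arrays correlated between 0.95 and 0.992. The luminal epithelial marker list, which stands for the milk-making cells, averaged between 10.81 and 11.59 in every array, and its dimmest gene, the keratin KRT18, had a mean of 8.46, so the tissue markers were present. A shared set of 280 probe sets was lower by at least 0.7 in replicate 4 of LD at day -9 and in replicate 3 of SD at day -24 than in each of the other 12 arrays, and 0 of them belong to the 8 genes. Signal levels are compared between arrays within a probe set, because probes differ in how they bind. Means over several probe sets are given only as a summary of each array.

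The largest group of probe sets that moved together covers the alpha chain genes BOLA-DQA1 and BOLA-DQA2 and the beta chain gene BOLA-DQB1. BOLA-DQA1 (Bt.22867.1.S1_at) measured 9.72, 9.53 and 4.44 in LD day -24 replicates 1 to 3 and 9.28, 2.99, 9.02 and 4.15 in LD day -9 replicates 1 to 4. The SD arrays measured 10.88, 10.71 and 8.72 at day -24 and 9.84, 10.21, 9.25 and 9.79 at day -9. No array lay between 4.44 and 8.72: LD day -24 replicate 3 and LD day -9 replicates 2 and 4 were low, and the other 11 arrays were high. The 3 low arrays are all of LD, and each LD group also holds arrays at the high level, within 2 log2 units of the SD arrays of its day. The overlapping probe set Bt.22867.1.S1_x_at, whose suffix marks probes that may also bind related transcripts, split the arrays in the same way, between 2.82 and 4.07 in those 3 arrays and between 7.92 and 10.06 in the rest.

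BOLA-DQA2 (Bt.4751.1.S1_a_at) gave 11.88, 11.67 and 7.77 in LD at day -24 and 11.55, 3.56, 11.39 and 7.65 in LD at day -9. In SD it gave 12.12, 12.32 and 11.53 at day -24 and 11.62, 12, 11.67 and 11.46 at day -9. The 3 arrays that were low for BOLA-DQA1 were again the low ones, but here LD day -9 replicate 2 lay about 4 log2 units under the other low arrays. That makes 3 levels in place of 2 for this probe set, and a 434-fold range over the 14 arrays. A second probe set of the gene, Bt.4751.2.S1_a_at, had 3.84 in LD day -9 replicate 2, 6.01 and 6.06 in the other low arrays and 10.28 to 11.29 elsewhere. The third, Bt.4751.2.S1_at, stayed between 3.30 and 5.94, near the lower quartile of the arrays, and its range was only 6.21-fold.

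BOLA-DQB1, the beta chain partner, is measured by 5 probe sets, and these did not act alike. Bt.350.1.S1_at had 8.07, 7.87 and 3.74 in LD at day -24 and 7.92, 1.49, 7.49 and 3.79 in LD at day -9, against 8.80, 8.60 and 7.78 in SD at day -24 and 7.90, 8.22, 7.74 and 7.63 in SD at day -9. The 1.49 in LD day -9 replicate 2 is the lowest value of the whole table. Its companion Bt.350.1.S1_x_at ran from 2.57 to 9.07 and was lowest in the same array. Bt.4594.1.S1_at had 3.44 in LD day -9 replicate 2, 6.34 and 6.47 in the other low arrays, 8.57 in SD day -9 replicate 4 and 10.53 to 11.35 in the remaining 10 arrays. SD day -9 replicate 4 thus stood apart in this probe set only among the 8 of this pattern.

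The probe set Bt.350.1.S1_s_at of the same gene, whose suffix marks probes shared between several transcripts, was high in every array. It had 12.16, 11.88 and 12.04 in LD at day -24, 11.79, 12.30, 11.67 and 11.99 in LD at day -9, 11.45, 11.27 and 11.94 in SD at day -24, and 11.03, 11.07, 11.93 and 10.59 in SD at day -9. The array with the lowest value for Bt.350.1.S1_at, LD day -9 replicate 2, had the highest value here. The within-group standard deviation, pooled over the 4 groups, was 0.379, which 80.02% of all tested probe sets do not exceed, so the name of a highly variable gene does not hold for this probe set.

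The genes BOLA-DQA5 and BOLA-DQB, an alpha and a beta chain of the DQ type, showed a different split. BOLA-DQA5 (Bt.215.1.S1_at) had 5.02, 11.19 and 11.10 in LD at day -24 and 2.49, 11.67, 10.93 and 10.83 in LD at day -9. In SD it had 5.5, 2.56 and 3.23 at day -24 and 2.69, 2.71, 3.52 and 8.11 at day -9. The 5 arrays above 10 were all of LD, replicate 1 of each LD group was low, and SD day -9 replicate 4 lay between. The range of 581-fold and the within-group standard deviation of 3.27 were the widest of the 15, and by standard deviation this probe set ranked 1 of 24016.

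BOLA-DQB (Bt.20925.1.S1_at) had 4.09, 9.88 and 9.69 in LD at day -24, 3.62, 11.07, 9.66 and 9.89 in LD at day -9, 4.87, 4.04 and 3.68 in SD at day -24, and 3.68, 3.65, 3.72 and 6.82 in SD at day -9. The same 5 LD arrays were high and the same SD array lay between. With group means subtracted, BOLA-DQA5 and BOLA-DQB correlated at 0.978 over the 14 arrays. Leaving out single arrays kept that value between 0.955 and 0.985. In the order of genes of the RefSeq table for the assembly ARS-UCD2.0, BOLA-DQA2, BOLA-DQB, BOLA-DQA5 and BOLA-DQB1 follow each other with 0 genes between them.

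The remaining BOLA-DQB1 probe set, Bt.7220.1.S1_at, followed BOLA-DQA5 and BOLA-DQB more than the other probe sets of its own gene. It had 4.86, 10.94 and 11.31 in LD at day -24, 4.81, 11.83, 10.55 and 11.36 in LD at day -9, 6.72, 6.75 and 10.92 in SD at day -24, and 3.69, 7.85, 10.86 and 8.26 in SD at day -9. The same 5 LD arrays were high, and replicate 3 of both SD groups was high as well. Its within-group standard deviation of 3.10 ranked 2 of 24016.

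**Figure D1:**
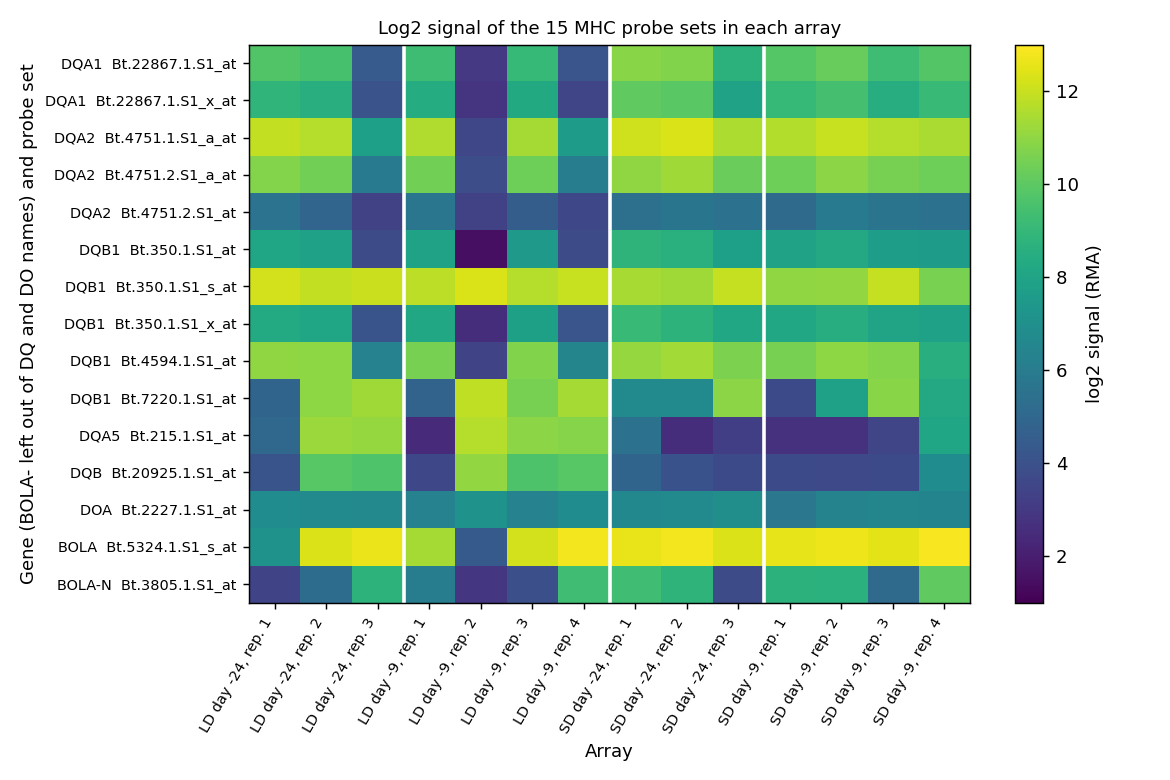
Log2 RMA value of each of the 15 probe sets (rows) in each of the 14 arrays (columns, by group), as colour from dark (low) to bright (high). BOLA-DQA1, BOLA-DQA2 and 3 BOLA-DQB1 probe sets are dark in the same 3 LD arrays, while BOLA-DQA5, BOLA-DQB and BOLA-DQB1 Bt.7220.1.S1_at are bright in 5 LD arrays. On this scale BOLA-DOA and Bt.350.1.S1_s_at change little in colour, with ranges of 1.40 and 1.70 log2 units.

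These patterns can be put as correlations over the 14 arrays with group means subtracted, given as a description. The points share the arrays and, for probe sets of 1 gene, some of the probed sequence. The 8 probe sets of BOLA-DQA1, BOLA-DQA2 and BOLA-DQB1 (without Bt.350.1.S1_s_at and Bt.7220.1.S1_at) correlated with each other between 0.849 and 0.999, with a median of 0.969. BOLA-DQA5, BOLA-DQB and Bt.7220.1.S1_at correlated between 0.704 and 0.978, with a median of 0.719. Between both sets every correlation was negative, from -0.777 to -0.481. The size of the negative relation depended on single arrays: BOLA-DQA1 against BOLA-DQA5 was -0.49 over all arrays and -0.25 without LD day -9 replicate 1.

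The relation is not a simple exchange of one set for the other. Averaged over probe sets, LD day -9 replicate 2 had 3.00 for the set of 8 and 11.52 for the set of 3, LD day -24 replicate 3 had 4.98 and 10.70, and LD day -9 replicate 4 had 4.93 and 10.70. LD day -24 replicate 2 had 9.01 and 10.67, and LD day -9 replicate 3 had 8.70 and 10.38, so in these 2 arrays both sets were high. Replicate 1 of LD had 9.28 and 4.66 at day -24 and 9.0 and 3.64 at day -9. The SD arrays all had the set of 8 between 8.78 and 9.83 and the set of 3 between 3.36 and 7.73. The mean of the set of 3 joins unlike values in replicate 3 of SD. At day -24 that array had 10.92 in Bt.7220.1.S1_at, 3.23 in BOLA-DQA5 and 3.68 in BOLA-DQB. At day -9 it was 10.86, 3.52 and 3.72. No array was low in both.

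Among the class I genes, BOLA, a class I heavy chain, was measured by Bt.5324.1.S1_s_at. Its suffix also marks probes shared between several transcripts, so the values may not be those of 1 gene alone. This probe set was high in all but 2 arrays and had a 355-fold range. It had 7.11, 12.38 and 12.66 in LD at day -24, 11.36, 4.41, 12.17 and 12.80 in LD at day -9, 12.62, 12.79 and 12.35 in SD at day -24, and 12.55, 12.69, 12.49 and 12.89 in SD at day -9. LD day -24 replicate 1 and LD day -9 replicate 2 were the low arrays, and the gap above them spanned 4.24 log2 units. The first of these was high for BOLA-DQA1 and the second was low, and BOLA correlated with the set of 8 only between 0.0378 and 0.462. Its spread rested largely on 1 array: the within-group standard deviation was 2.55 over all arrays and 1.52 without LD day -9 replicate 2.

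BOLA-N (Bt.3805.1.S1_at), also a class I heavy chain, divided the arrays about evenly. It had 3.47, 5.24 and 8.78 in LD at day -24, 6.09, 2.89, 3.92 and 9.34 in LD at day -9, 9.31, 8.83 and 3.73 in SD at day -24, and 8.73, 8.67, 5.15 and 10.06 in SD at day -9. There were 7 arrays at or below 6.09 and 7 at or above 8.67, and each of the 4 groups held both kinds. Its correlation with the set of 8 was between -0.287 and -0.048, so the class I and the DQ probe sets divided the arrays differently.

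BOLA-DOA (Bt.2227.1.S1_at), the alpha chain of a class II molecule that stays inside the cell and regulates peptide loading, did not share the wide spread. It had 6.84, 6.74 and 6.63 in LD at day -24, 6.34, 7.15, 6.31 and 6.85 in LD at day -9, 6.61, 6.74 and 6.94 in SD at day -24, and 5.74, 6.36, 6.53 and 6.40 in SD at day -9. Its within-group standard deviation was 0.307, rank 7815 of 24016. BOLA-DOA lies apart from the DQ genes, with 372 genes between it and BOLA-DQA2 in the RefSeq order.

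Set side by side, 12 of the 15 probe sets had a within-group standard deviation above 1.8, a level that 31 of all tested probe sets passed. The 15 had a median of 2.31, against 0.244 over all tested probe sets, of which 1% lay above 0.973. Of the 20 most variable probe sets, 11 belong to the 8 genes, and 7 more are annotated to several MHC genes at once. Just inside the level of 1.8 was BOLA-DQB1 Bt.350.1.S1_x_at with 1.86, and just outside was BOLA-DQA2 Bt.4751.2.S1_at with 0.802. The median of 2.31 was 1.75 without LD day -9 replicate 2, the array with the lowest values of the DQA1, DQA2 and BOLA probe sets.

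**Figure D2:**
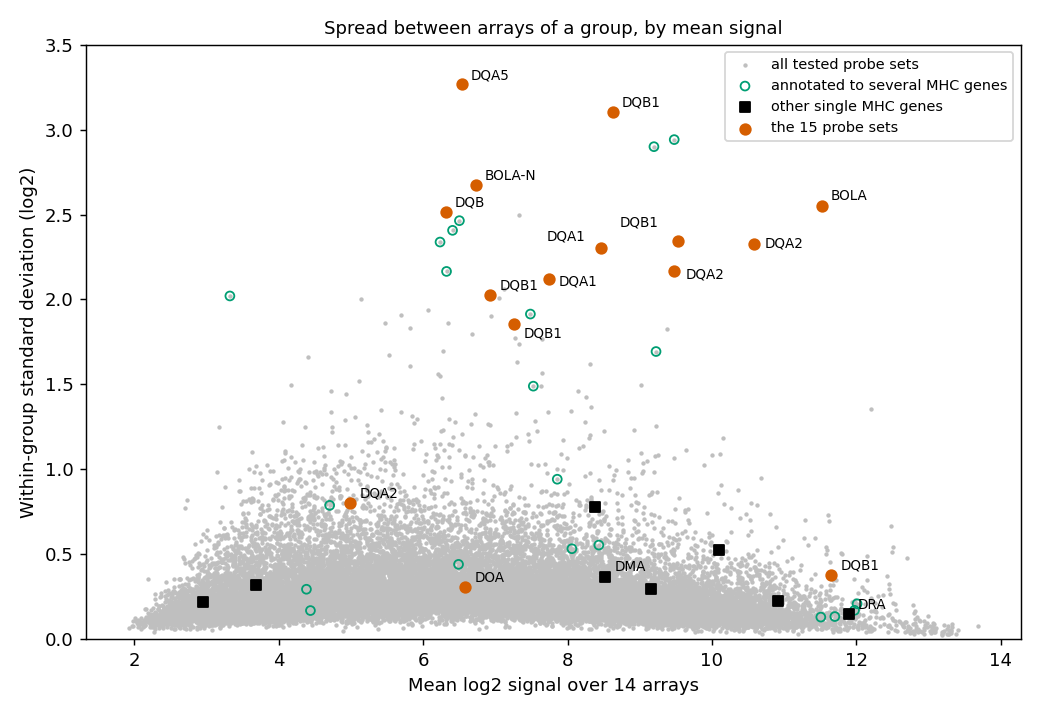
Pooled within-group standard deviation (vertical axis, log2) against mean log2 signal over 14 arrays (horizontal axis), with all 24016 tested probe sets in grey, the 15 probe sets of the 8 genes in orange, other single MHC genes as black squares and those annotated to several MHC genes as green rings. The 15 lie far above the grey cloud, apart from BOLA-DOA at 0.307 and BOLA-DQB1 Bt.350.1.S1_s_at at 0.379 inside it and BOLA-DQA2 Bt.4751.2.S1_at at 0.802 on its upper edge.

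Other class II genes of the same tissue varied less. BOLA-DRA, the alpha chain of the DR molecule, ran from 11.59 to 12.17 with a within-group standard deviation of 0.147. BOLA-DRB3, its polymorphic beta chain, ran from 10.44 to 11.28 with 0.227 in Bt.5356.1.S1_s_at. In Bt.28011.1.S1_at it was 5.91 in SD day -9 replicate 4 and 7.78 to 9.31 elsewhere, with 0.777. BOLA-DMA and BOLA-DMB, the chains of the molecule that loads peptides onto class II, ran from 7.98 to 9.19 and from 8.45 to 9.67. BOLA-DYA and BOLA-DYB were dim, at no more than 4.10 and 3.30. A further probe set, annotated BoLA and matching none of the 8 names by its letters, ran from 9.39 to 10.86. The genes BOLA1 and BOLA2B share the letters but belong to the BolA family, not to the MHC, and their 3 probe sets had standard deviations of 0.218, 0.178 and 0.411.

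A list of class II presentation genes without the 8 genes, which also holds the invariant chain and the transcription factors of class II, had 11 of 23 genes measured. Each listed gene was represented by 1 probe set. By these probe sets, the median within-group standard deviation of the list was 0.22 and the highest was 0.368, in BOLA-DMA. The BOLA-DRB3 probe set Bt.28011.1.S1_at, with 0.777, was not among them. The class I presentation list, with beta-2 microglobulin, the peptide transporter and the proteasome subunits, had 17 of 21 genes measured, a median of 0.228 and a highest value of 0.699 in the peptide trimming enzyme ERAP2. Among interferon gamma response genes, 10 of 17 were measured, with a median of 0.423 and a highest value of 1.18 in IDO1, which degrades tryptophan. With 1 probe set per gene, 0 genes in each of these lists reached 1.8, a level passed by 12 of the 15 MHC probe sets. Both counts are not alike, because the 15 hold every probe set of their genes. The 8 genes were also chosen for wide spread and the lists were not.

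Probe sets annotated to several MHC genes were not counted among the 15 and are given no single gene name. There were 21 of them, with within-group standard deviations from 0.13 to 2.94. Of these, 8 lay above 1.8 and 6 under 0.3, so wide and narrow spread also occurred among probes for nearly the same class I genes. The narrow ones lay near either end of the scale, which limits this comparison. Bt.29820.1.A1_s_at and Bt.29820.1.S1_s_at averaged 4.38 and 4.44, under the lower quartile of every array. The others averaged 11.51 to 12.01 and carry the suffix of probes that may also bind related transcripts. Bt.22867.2.A1_at, annotated to BOLA-DQA1 and another locus, was at 9.98 in SD day -9 replicate 4 and between 2.57 and 3.44 in the other 13 arrays. Bt.4762.1.S1_at, annotated to several class I genes, was at 3.40 in LD day -9 replicate 2 and between 8.99 and 10.18 elsewhere. Bt.29824.1.S1_s_at and Bt.28022.1.A1_s_at, both annotated to BOLA-N and another class I gene, were at 2.16 and 2.18 in LD day -24 replicate 1 and at or above 7.07 and 6.69 elsewhere, ranges of 903-fold and 772-fold. The array that stood apart was thus not the same in all of these probe sets.

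Group differences were tested with limma on all 24016 probe sets, with Benjamini-Hochberg adjustment across the whole table. At an adjusted p under 0.05, 0 of the 15 probe sets changed in any of the 6 comparisons, and neither did any other probe set (0% of 24016 in each). The counts at an unadjusted limma p under 0.05 are given below for each comparison, beside the share of all probe sets that passed it. Probe sets of these genes share arrays, haplotypes and partly sequence, so their counts are not counts of independent events. The main limma fit took all arrays as independent. The labels do not tie arrays to named cows, and a pairing of both days through the same cow was not modelled there. The p-values therefore hold only as far as the arrays are independent.

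At day -24, 1 of the 15 probe sets had an unadjusted p under 0.05 for SD minus LD, against 2.42% of all tested. This was BOLA-DQA5, whose group mean was 3.76 ± 1.54 (± standard deviation, n = 3) in SD and 9.10 ± 3.54 (n = 3) in LD. The difference was -5.34 with a standard error of 2.33 and a 95% interval from -10.37 to -0.31 (limma adjusted p = 1). The count of 1 became 0 without LD replicate 2 or 3 or SD replicate 2 or 3 of day -24, 2 without LD replicate 1 or SD replicate 3 of day -9, and 3 without LD replicate 1 of day -24. BOLA-DQB differed by -3.69 with a standard error of 1.8 (limma adjusted p = 1), or by -5.59 without LD day -24 replicate 1.

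BOLA-DQA1 had means of 10.10 ± 1.20 in SD and 7.90 ± 3.00 in LD at day -24 (n = 3 each). The difference of 2.21 had a standard error of 1.65 and an interval from -1.35 to 5.76 in limma. Without LD day -24 replicate 3 it was 0.48. The class I difference of BOLA was 1.87 with a standard error of 1.82, or 0.07 and 2.84 when LD replicate 1 or 3 of that day was left out. That of BOLA-N was 1.46 with a standard error of 1.91, and leaving out any 1 of 5 of the 6 arrays moved it by more than 1.5 times. It was 0.28 without LD replicate 1, 2.94 without LD replicate 3, and 0.45, 0.69 and 3.24 without SD replicate 1, 2 and 3. BOLA-DOA differed by 0.03 with a standard error of 0.236. For 0 of the 15 probe sets did the 3 SD arrays lie apart from the 3 LD arrays, which was so for 5.67% of all tested.

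At day -9, 7 of the 15 probe sets had an unadjusted p under 0.05 for SD minus LD, against 2.77% of all tested. The smallest was that of BOLA-DQB1 Bt.350.1.S1_s_at, with 11.16 ± 0.558 in SD and 11.94 ± 0.274 in LD (n = 4 each), a difference of -0.78 with a standard error of 0.246 and an interval from -1.31 to -0.25 (limma adjusted p = 0.984). Its unadjusted p stayed under 0.05 in each of the 14 limma fits that left out 1 array. SD replicate 3, at 11.93, lay inside the LD range, so the groups overlapped.

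BOLA-DQB was 4.47 ± 1.57 in SD and 8.56 ± 3.35 in LD at day -9 (n = 4 each), a difference of -4.09 with a standard error of 1.56 (limma adjusted p = 0.984). BOLA-DQA5 was 4.26 ± 2.60 in SD and 8.98 ± 4.34 in LD, a difference of -4.72 with a standard error of 2.02 (limma adjusted p = 0.984). In the opposite direction were both BOLA-DQA1 probe sets, at 3.41 with a standard error of 1.43 (Bt.22867.1.S1_at) and 3.25 with 1.31 (Bt.22867.1.S1_x_at). The BOLA-DQA2 probe sets Bt.4751.2.S1_at and Bt.4751.1.S1_a_at also had higher means in SD, by 1.26 with a standard error of 0.501 and 3.15 with 1.44, all 4 with a limma adjusted p of 0.984. The last was 1.49 without LD day -9 replicate 2.

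The higher SD means of BOLA-DQA1 and BOLA-DQA2 came with very unequal spread. BOLA-DQA1 was 9.77 ± 0.396 in SD and 6.36 ± 3.26 in LD at day -9, and LD replicates 1 and 3 were at 9.28 and 9.02, beside an SD minimum of 9.25. Only the probe set Bt.22867.1.S1_x_at had groups that did not overlap at day -9, from 8.46 to 9.45 in SD and from 2.82 to 8.45 in LD, against 2.46% of all tested probe sets. Its lowest SD and highest LD values differed by about 0.01.

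The count of 7 moved with single arrays. Of the LD arrays of that day, leaving out replicate 2 gave 1, replicate 4 gave 2 and replicate 1 gave 12. Of the SD arrays, leaving out replicate 2 gave 2 and replicate 1 gave 4. Of the class I genes, BOLA differed by 2.47 with a standard error of 1.58 at day -9, or by 0.54 without LD day -9 replicate 2, and BOLA-N by 2.59 with a standard error of 1.65, or by 1.70 without that array. BOLA-DOA differed by -0.40 with a standard error of 0.204 (limma adjusted p = 0.984), or by -0.24 without LD replicate 2 and -0.23 without SD replicate 1. The limma F test over the 4 groups gave an unadjusted p under 0.05 for 3 of the 15, against 3.44% of all tested: Bt.350.1.S1_s_at, BOLA-DQB and BOLA-DQA5, all with a limma adjusted p of 0.967. That count ran from 1 to 10 over leaving out single arrays, with 10 when replicate 1 and 7 when replicate 3 of LD at day -9 was left out. Leaving out LD replicate 2 of day -24, LD replicate 2 or 4 of day -9, SD replicate 2 or 3 of day -24 or SD replicate 1, 2 or 3 of day -9 gave 1.

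**Figure D3:**
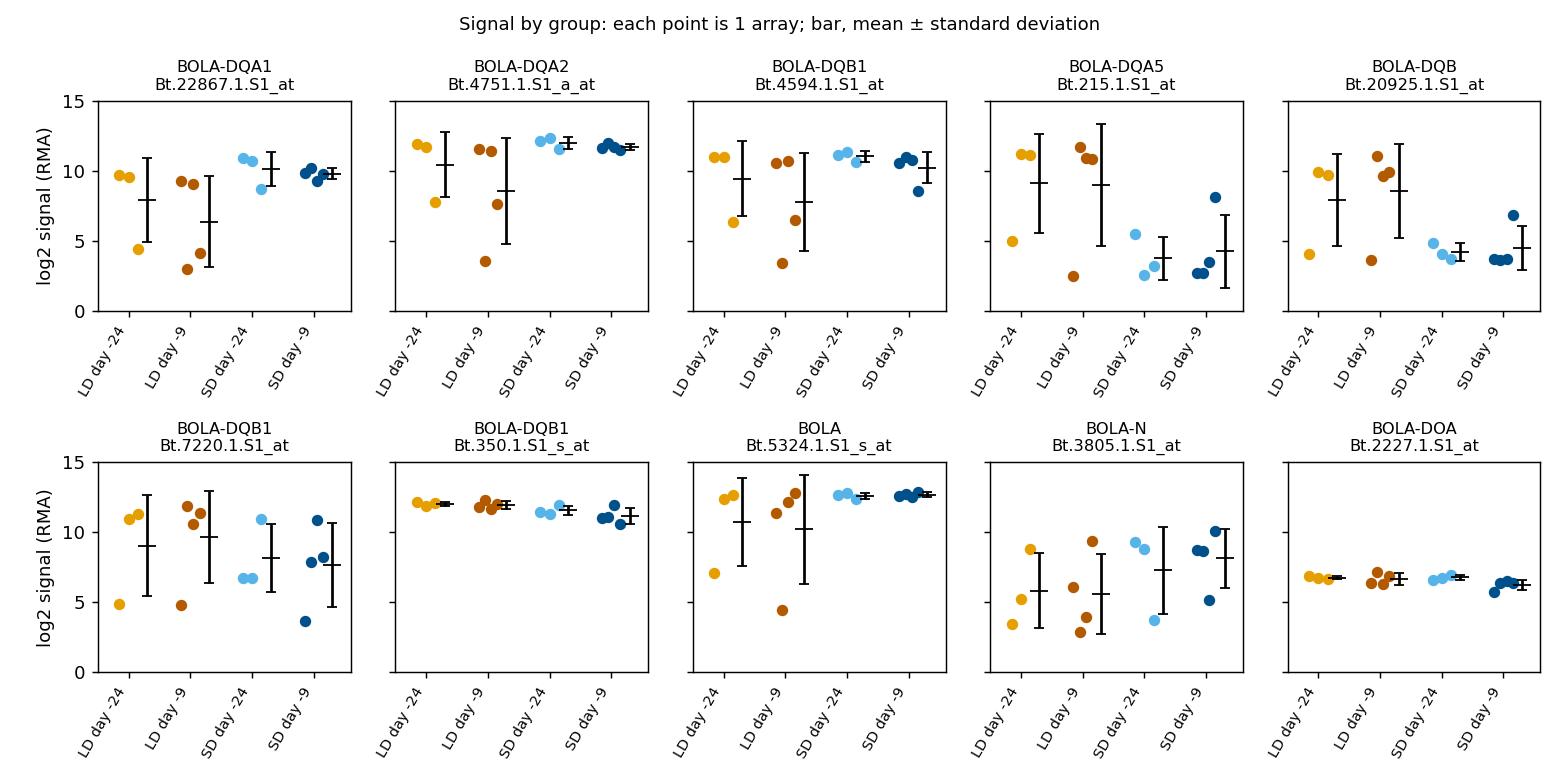
Log2 value (vertical axis) in the 4 groups (horizontal axis), for 10 of the 15 probe sets, with each array as a point and the mean ± standard deviation beside them (n = 3 or 4). In BOLA-DQA1 the SD points cluster between 8.72 and 10.88 while the LD points divide into a high and a low cluster, and in BOLA-DQA5 5 LD arrays lie above 10.

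**Figure D4:**
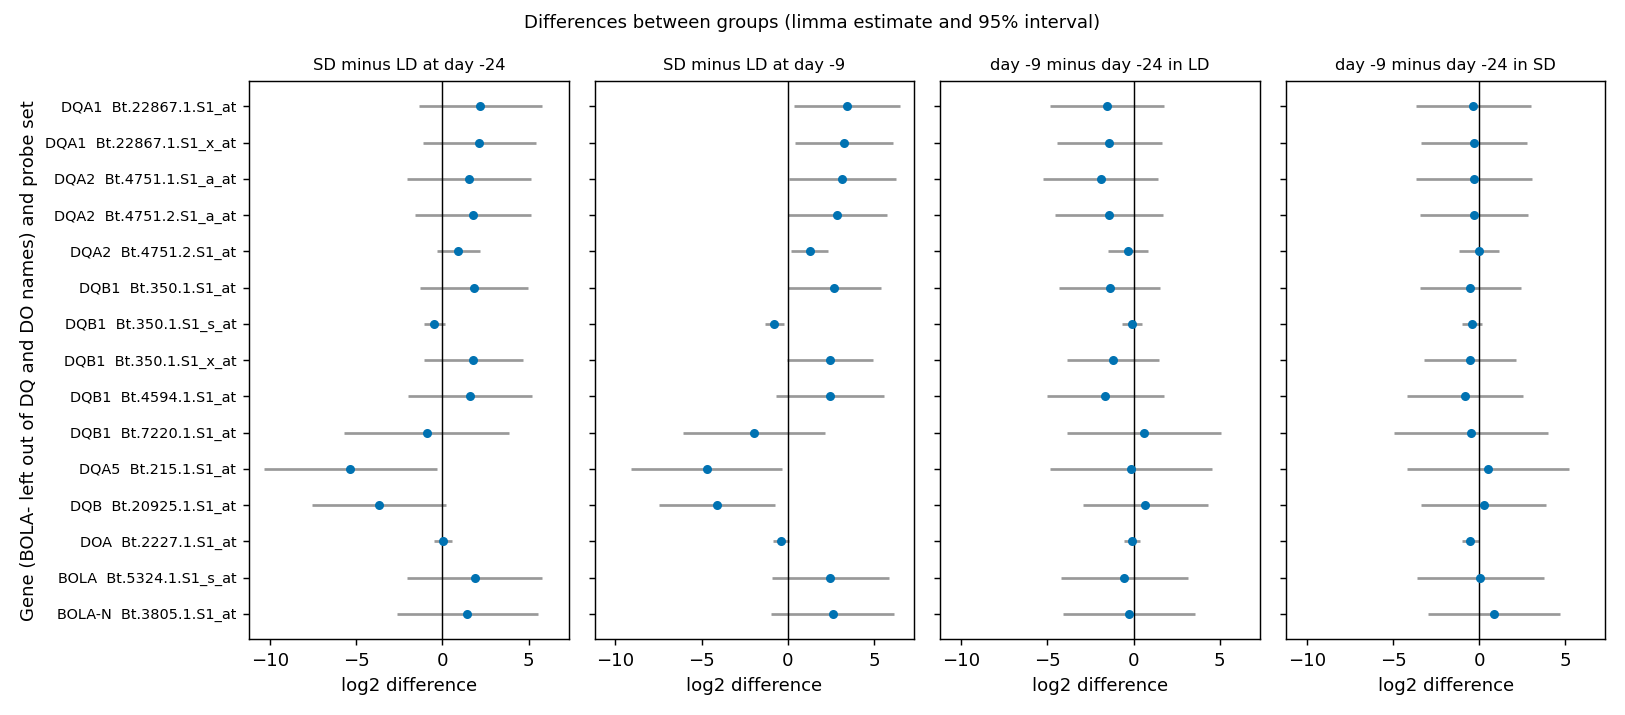
Log2 differences (horizontal axis, 1 panel each for SD minus LD at day -24 and at day -9 and for day -9 minus day -24 in LD and in SD) of the 15 probe sets (vertical axis), as limma estimates with their 95% intervals. DQA1 and DQA2 lie right of 0 and DQA5 and DQB left of 0 in both panels of SD minus LD, and most intervals span several log2 units and include 0.

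The days were compared within each photoperiod. In LD, 0 of the 15 probe sets had an unadjusted limma p under 0.05 for day -9 minus day -24, against 7.47% of all tested, and the smallest p was that of BOLA-DQA2 Bt.4751.1.S1_a_at (-1.90 with a standard error of 1.55). Leaving out LD replicate 2 of day -9 made that difference -0.24, leaving out LD replicate 3 of day -24 made it -3.24, and leaving out LD replicate 1 of either day also moved it by more than 1.5 times. The count was 1 without LD day -24 replicate 3. None of the 15 had groups apart in LD, against 8.98% of all tested. In SD, 1 of 15 passed, against 4.56% of all tested. This was BOLA-DOA, with 6.26 ± 0.350 at day -9 (n = 4) and 6.76 ± 0.166 at day -24 (n = 3), a difference of -0.51 with a standard error of 0.221 (limma adjusted p = 0.97). Its SD groups did not overlap, from 5.74 to 6.53 at day -9 and from 6.61 to 6.94 at day -24, which held for 5.9% of all tested. The count of 1 became 0 without SD replicate 1 of day -9, where the difference was -0.34, or without SD replicate 2 or 3 of day -24, and 2 without SD replicate 3 of day -9. The difference between both photoperiod differences, the interaction, had an unadjusted limma p under 0.05 in 0 of 15, against 4.15% of all tested, and its smallest adjusted p was 0.9.

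Standard errors set what these comparisons could show. The median standard error of SD minus LD over the 15 probe sets was 1.65 at day -24 and 1.43 at day -9, against 0.195 and 0.169 over all tested. The median absolute difference was 1.79 and 2.59, against 0.128 and 0.118 over all tested. For the days, the median absolute difference was 0.67 in LD and 0.40 in SD with a median standard error of 1.54 in both. Over all 14 arrays, a median of 36.0% of the variance of the 15 probe sets lay between groups, against 20.6% over all tested.

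The pairs of arrays most alike in the 15 probe sets each held an array of either day. The distance between 2 arrays was taken as the root mean square of their differences over the 15 probe sets, and its median over the 91 pairs was 2.76 log2 units. The 4 closest pairs each joined a day -24 array to a day -9 array of the same photoperiod. LD day -24 replicate 3 and LD day -9 replicate 4 were 0.26 apart. SD day -24 replicate 2 and SD day -9 replicate 2 were 0.43 apart, SD day -24 replicate 3 and SD day -9 replicate 3 were 0.448 apart, and LD day -24 replicate 2 and LD day -9 replicate 3 were 0.457 apart. The fifth closest pair was at 0.819, and the 18 pairs within a group ran from 0.819 to 6.09.

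For the closest of these pairs, the median absolute difference over the 15 probe sets was 0.144 and the largest was 0.568. BOLA-DQA2 Bt.4751.1.S1_a_at had 7.77 and 7.65, BOLA-DQA5 had 11.10 and 10.83, BOLA had 12.66 and 12.80, and BOLA-N had 8.78 and 9.34 in those 2 arrays. In the other 3 pairs the median absolute difference was 0.372, 0.137 and 0.28, and the largest differences were 1.10 in BOLA-DQB1 Bt.7220.1.S1_at and 1.42 and 1.32 in BOLA-N. These pairs were chosen because they are close, so the distances are a description.

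The 21 probe sets annotated to several MHC genes, which were not used to find these pairs, put the same 4 among their 5 closest pairs, at 0.411, 0.329, 0.34 and 0.402, where the median pair was 2.02 apart. The remaining one of the 5 was SD replicate 1 of day -24 and of day -9, at 0.347, whose distance over the 15 probe sets was 1.28, with a difference of 3.03 in BOLA-DQB1 Bt.7220.1.S1_at. Both sets of probe sets are annotated to MHC genes, so they are not separate evidence. Over all other probe sets the 4 pairs were not all close: they ranked 50, 3, 46 and 2 of 91, with distances of 0.474, 0.311, 0.45 and 0.299 beside a median of 0.45. The pairs ranked 50 and 46 hold LD day -9 replicate 4 and SD day -24 replicate 3, the arrays in which 280 other probe sets were lower. What part these arrays had in the ranks was not tested. Nothing in the labels ties an array of day -24 to one of day -9 through a cow, and whether these arrays come from 1 cow was not tested.

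**Figure D5:**
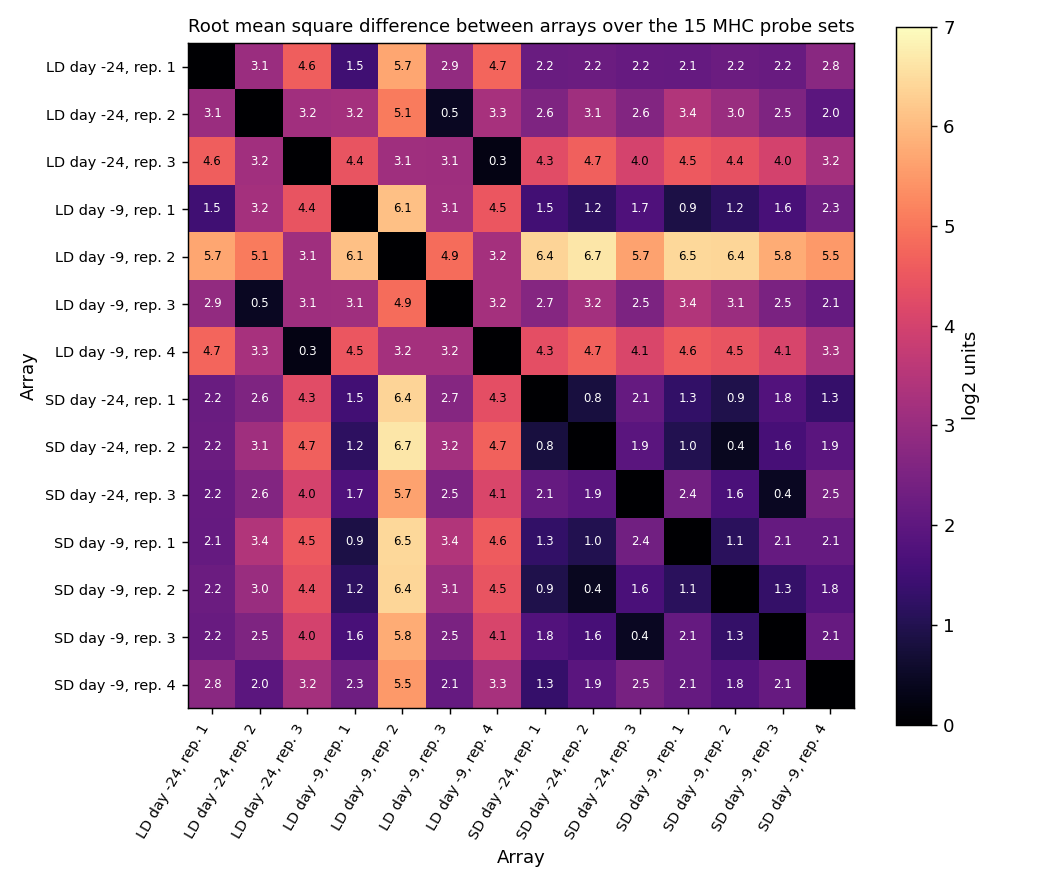
Root mean square difference in log2 units between each pair of the 14 arrays (rows and columns) over the 15 probe sets, as colour and as the printed value, with dark for close pairs. The 4 closest pairs, between 0.26 and 0.457, each join a day -24 array to a day -9 array of the same photoperiod, and replicate 2 of LD at day -9 lies between 3.13 and 6.65 from every other array.

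Among probe sets of other genes, the 3 with the highest correlation to each of the 15 over the 14 arrays, group means subtracted, were looked up. ATP2B1, a calcium pump of the plasma membrane, was the nearest for 8 of 15, all of the DQA1, DQA2 and DQB1 set, through Bt.23296.1.S1_at (0.99 with BOLA-DQA1 Bt.22867.1.S1_at). That probe set had 8.93, 8.58 and 4.70 in LD at day -24, 8.41, 3.98, 8.05 and 4.05 in LD at day -9, 9.15, 9.51 and 7.56 in SD at day -24, and 8.35, 8.89, 8.35 and 8.48 in SD at day -9. The same 3 arrays were low. The other 2 ATP2B1 probe sets did not show this pattern: Bt.8872.1.S1_at ran from 7.83 to 8.99 and Bt.8872.1.S2_at from 9.51 to 10.18, with correlations of 0.40 and 0.0452 to BOLA-DQA1.

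The other nearest probe sets had much narrower spread. SFRP2, a secreted Wnt antagonist, correlated with BOLA-DQA1 at 0.954 with a within-group standard deviation of 0.379. RAP2B, a small GTPase, correlated at 0.949 with BOLA-DQB and 0.933 with BOLA-DQA5, with a standard deviation of 0.202. NAA50, an N-terminal acetyltransferase, correlated at 0.941 with BOLA-DQA5, and SSBP4 at 0.938 with BOLA-DQB1 Bt.7220.1.S1_at. The nearest to BOLA was the homeobox gene MSX1 at 0.951 and to BOLA-N the zinc finger gene ZNF451 at 0.951. All of these are the highest values of a search over the named probe sets of other genes with 14 arrays. BOLA-DOA was nearest to SLAMF8 (0.921), RAB40B (0.91) and BOLA-DMB (0.904), the last a class II gene of its own stretch of the MHC, and BOLA-DQB1 Bt.350.1.S1_s_at to MFNG at 0.898.

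Immune cell markers were set beside these values. The summed level is given as the mean log2 value of a list, with 1 probe set per gene. The macrophage and dendritic cell list (12 of 16 measured) ran from 8.40 to 8.99 in LD and from 7.93 to 8.49 in SD at day -9. Of its genes, 11 of 12 had a negative SD minus LD difference, with a median of -0.225, and 2 of 12 were lower at an unadjusted limma p under 0.05, 0 at an adjusted one. Over all 24016 tested the median of that difference was 0.00, and 320 were lower and 346 higher at an unadjusted p under 0.05. The dimmest was CD1B, a dendritic cell marker, with a mean of 4.73, and none of the 12 had a mean under the lower quartile of the arrays. The class II presentation list ran from 8.45 to 8.78 in LD and from 8.28 to 8.56 in SD at day -9, with 10 of 11 differences negative and a median of -0.124. At day -24 the macrophage and dendritic cell list had 8 of 12 SD minus LD differences negative and a median of -0.102. The class II list had 2 of 11 negative at day -24 and a median of 0.0342.

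The B and plasma cell list (7 of 13 measured) ran from 6.32 to 7.20 in LD and from 6.27 to 6.78 in SD at day -9, with 6 of 7 negative and a median of -0.172. Its dimmest gene CR2 had a mean of 3.32, under the lower quartile of every array. The T and NK cell list (17 of 20 measured) had 12 of 17 negative and a median of -0.0719 at day -9. At day -24 the B and plasma cell list had 2 of 7 negative and a median of 0.0181. The T and NK cell list had 6 of 17 negative at day -24 and a median of 0.0831, so these 2 lists did not lean the same way on both days. The neutrophil list (7 of 10) had the widest spread of the lists, with a median within-group standard deviation of 0.993 and 1.67 for the cathelicidin CATHL1, and its mean ran from 4.40 to 6.45 over the arrays. In the other lists the median was 0.677 for adipocytes (5 of 6), 0.323 for endothelial cells (6 of 6), 0.259 for fibroblasts and matrix (7 of 7) and 0.19 for luminal cells (9 of 9).

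Over the 14 arrays, with group means subtracted, the 2 probe sets of narrowest spread had positive correlations with some immune lists. BOLA-DOA had 0.833 with the class II list and 0.739 with the T and NK cell list, and Bt.350.1.S1_s_at had 0.645 with the macrophage list and 0.639 with the T and NK cell list. With the B and plasma cell list they had -0.294 and -0.111. Of the widely varying probe sets, BOLA-DQA1 correlated at -0.244 with the class II list and at -0.449 with the macrophage list. With the adipocyte list both BOLA-DQA1 probe sets had positive correlations, of 0.619 and 0.616, as had 3 of the BOLA-DQB1 probe sets (0.604, 0.616 and 0.641) and those of BOLA-DQA2 (0.375 to 0.599). The adipocyte mean ran from 6.19 to 6.71 in LD and from 5.94 to 6.71 in SD at day -24, and from 6.44 to 7.31 in LD and from 6.46 to 7.35 in SD at day -9. Only 5 adipocyte genes were measured, and 2 had means under the lower quartile of every array, the dimmest being LEP at 3.54. The correlations named here were picked from those of all the probe sets with every list. BOLA correlated at -0.771 with the class II list and at -0.752 with the macrophage list, and BOLA-DQB1 Bt.7220.1.S1_at at -0.852 with the B cell list. The part of cell makeup in the differences between groups was not tested.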

How the data were processed

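Biotinylated cRNA of 14 mammary biopsies was hybridised to Affymetrix bovine arrays. Per the submitters' processing notes, the authors summarised the arrays by RMA, and the deposited values are log2 signals. Software, version and genome build are not given in the sources used here. Of 24128 probe sets, 112 controls were left out. Gene names are those of the platform annotation (13292 probe sets with 1 symbol, 86 with several, 10638 with none), and 5 of the 8 gene IDs were found in RefSeq's ARS-UCD2.0 table. In R 4.3.3, limma 3.58.1 fitted the 4 group means over all 14 arrays, two-sided, with Benjamini-Hochberg adjustment over 24016 probe sets and a threshold of 0.05. The procedure was tested on simulated data. No filter was set, and arrays have no read depth, so their number limits the precision. Named are all probe sets of the 8 genes, the 3 most correlated probe sets of other genes for each, and at most 3 genes per list by spread. Probe sets of 1 gene were averaged only in the means of the set of 8 and the set of 3. The genes and lists were chosen with earlier results of these data known. Alternatives changed the variance model, array weights, scaling, signal filter, blocks and arrays used. Sequences were not used here.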

Additional observations from a re-analysis of the deposited data

Results flagged for a closer look

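In 3 of the 30 sets of 4 arrays looked at (15 probe sets in both groups of day -9), 1 array stood far from the others by Dixon's criterion. Chance gives this in about 1 in 20 independent sets, but these genes were chosen for their wide spread and the 30 sets share arrays and sequence, so the values are a description. BOLA-DQA5 was 2.49 in LD day -9 replicate 1 and 10.83 to 11.67 in the other LD arrays of that day. In SD day -9 replicate 4 BOLA-DQA5 was 8.11, against 2.69 to 3.52 in the other 3. In the same array BOLA-DQB was 6.82, against 3.66 to 3.72. Both genes thus set SD day -9 replicate 4 apart from its group.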

How the results depend on the processing

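Over all 24016 probe sets, the count at an adjusted limma p under 0.05 was 0 in each of the 6 comparisons under every setting run, with 1 exception. For day -9 minus day -24 in SD it was 1 when both arrays of low signal (replicate 4 of LD at day -9 and replicate 3 of SD at day -24) were left out together, and 0 to 1 when single arrays were left out (1 without SD day -24 replicate 3). That probe set, Bt.29822.1.A1_at, is none of the 15 and has no annotated gene. For the 15 probe sets, 0 of 1845 refits passed, with a smallest adjusted p of 0.591, and 89 refits had the other sign, over 30 of 75 differences, of which the largest was 1.60. Most of these concern the days and the interaction.

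The unadjusted counts given above ran, over leaving out single arrays, from 0 to 3 for SD minus LD at day -24 and from 1 to 12 at day -9. Under the other settings the day -24 count ran from 0 to 2. The day -9 count of 7 was 2 without both arrays of low signal together, 4 when only probe sets at or above the median of mean signal were tested, 5 with array weights and 10 with an intensity trend. The median within-group standard deviation stayed between 2.29 and 2.32 under other scalings and without the 2 arrays of low signal, and between 1.75 and 2.43 without single arrays. That of BOLA-DQA2 Bt.4751.1.S1_a_at was 1.53 without LD day -9 replicate 2. With a replicate block, fixed or random, the count at an adjusted p under 0.05 was 0 in all comparisons (correlation of the random block 0.0563). Same-numbered arrays of both days correlated between -0.313 and 0.331 in their deviations, and 3 of 6 correlated best with their own number. The numbers were thus not taken to pair the arrays, and blocks built on them cannot show what pairing by cow would change. Groups of 3 or 4 arrays with standard errors above 1 log2 unit limit what can be seen at these genes. The additional alternatives for array distances and correlations were chosen after seeing the data: the 4 closest pairs were all among the 5 closest after centring or quantile normalization, and 3 of them with 1 probe set per gene.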
